A study of Homo sapiens with 8 samples.

Results

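The genes described here encode 42 factors that start and carry out translation, from the 3 subunits of eIF2 to the elongation factor EEF2. They were taken by symbol from the 60646 genes of the deposited count table. The cells were MDA-MB-231, a human breast cancer line of the triple-negative kind with basal and mesenchymal traits. Wild-type cells carried the wild-type DOT1L allele, and the knockout cells, labelled DOT1L/+, had been edited with a guide RNA against the first exon of that gene. DOT1L is the histone methyltransferase that modifies H3K79, and by its title the study concerns MYC and Mondo turnover on chromatin. Each group held 4 samples, numbered 1, 2, 3 and 5, and one growth protocol is given for both groups, with no drug named. The labels give neither the edit itself nor whether the knockout cells were a single clone, and they do not say that samples of a group were separate cultures. The p-values below therefore rest on the scatter among these 8 samples, which may be technical alone.

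Translation of most cellular mRNAs begins when eIF4E binds the cap, the scaffold eIF4G joins it to the helicase eIF4A, and eIF3 brings in the small ribosomal subunit that carries eIF2 with the initiator tRNA. The 4E-BP proteins compete with eIF4G for eIF4E, and eIF2B reloads eIF2 with GTP, the step that stress kinases block by phosphorylating eIF2 alpha. Once the large subunit has joined, eEF1 delivers each tRNA and eEF2 moves the ribosome on. Several of these genes are described targets of MYC, among them EIF4E, and many mRNAs of the elongation machinery begin with a run of pyrimidines (a TOP start) through which mTOR controls their translation.

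Counts assigned to genes came to between 40103408 and 50031412 per sample, so that 1 count stood for 0.0198 to 0.0250 CPM (counts relative to the library total after scaling by the trimmed mean of M values, TMM). DOT1L fell from 109 ± 8.52 to 84.7 ± 5.91 CPM (SD, n = 4 in each group), a log2 change of -0.37 (adjusted p = 2.83e-05, edgeR's quasi-likelihood test). MYC was lower as well, at 193 ± 14.2 CPM in wild-type and 124 ± 5.68 CPM in knockout samples (-0.63, adjusted p = 3.12e-09). The 6 markers of the line summed to 5741 to 6407 CPM in wild-type and 6681 to 7301 CPM in knockout samples. Blood cell markers summed to at most 0.773 CPM in any sample and all 4 lay below 1 CPM. Markers of luminal cells and receptors ran from 6.40 to 9.05 CPM, with 3 of 4 below 1 CPM, and those of fibroblasts and endothelium from 11.1 to 20.5 CPM in wild-type and 25.2 to 30.9 CPM in knockout samples, with 3 of 5 below 1 CPM. Their part in the results was not tested.

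Wild-type replicate 3 stood apart for these genes. It had the lowest scaling factor of the 8 samples (0.946) and was the highest wild-type sample for 39 of the 41 members that could be tested, against 32.3% of all 19877 genes tested. The main counts are therefore also given without it. In bulk samples, fewer cells of a kind and less RNA per cell cannot be told apart.

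**Figure D1:**
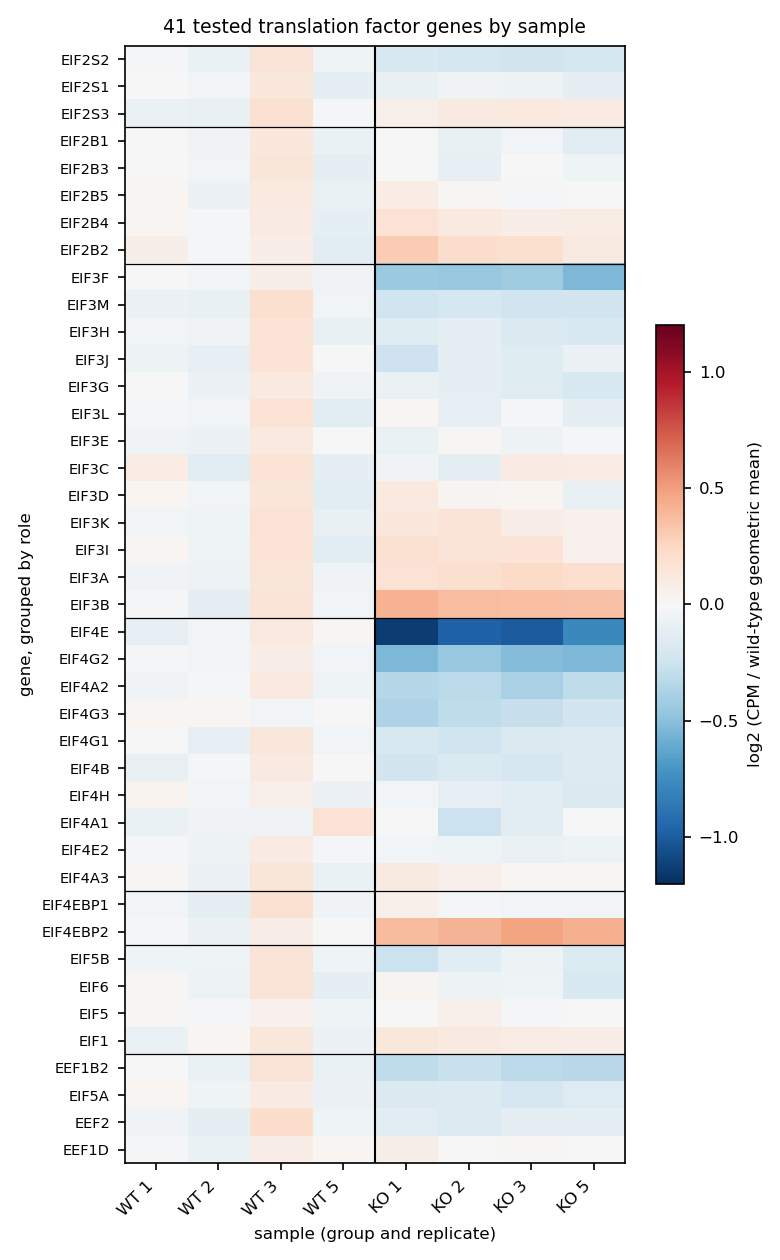
Level of the 41 tested genes (vertical axis, grouped by role) in the 8 samples (horizontal axis), as log2 of the CPM over the geometric mean of the wild-type samples. The column of wild-type replicate 3 is above the other wild-type columns for 39 genes, and EIF4E has the deepest fall and EIF4EBP2 the strongest rise.

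Of the 41 members tested, 4 rose in the knockout samples, 15 fell and 22 did not pass the test at an adjusted p of 0.05. Across all genes tested, 47.6% were called, 23.9% as higher and 23.6% as lower. The members called, 19 in all, were thus called about as often as all genes tested, with 9.76% higher and 36.6% lower. The median log2 change over all 41 tested members was -0.07, against 0.00 over all genes. The changes were small: 39 of 41 were under 0.5 on the log2 scale and 0 were past 2-fold. The median size was 0.21 among called members and 0.45 among all genes called. All genes tested include genes with few counts, whereas the lowest mean log2 CPM of a tested member was 2.29 (EIF3C). Neither the share called nor the median size was compared at matched level. Group means moved by between -48.8% for EIF4E and 33.9% for EIF4EBP2. In every knockout sample against every wild-type sample, 4 members were higher and 15 lower, where 43.4% of all genes had groups apart, 21.3% as higher and 22.1% as lower.

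The numbers of rises and falls depended on the scale and on that wild-type sample. Without wild-type replicate 3 the count was 10 higher and 12 lower, and the median was -0.02, against 0.01 over all genes. The members were thus 24.4% higher and 29.3% lower, beside 24.3% and 23.3% of all genes. With library totals in place of TMM the count was 10 and 11 (median 0.00), where 29.7% of all genes were higher and 18.8% lower. With upper-quartile scaling it was 10 and 10 (median 0.00), where 30.3% of all genes were higher and 18.6% lower. These 2 scalings moved the median of all genes to 0.07 and the share of all calls that were higher from 50.3% to 61.2% and 61.9%. The members' median was lower than that of all genes by 0.07 in the fit reported and under both scalings, and by 0.02 without wild-type replicate 3. The same 6 genes were added to the rises in each of these 3 fits, namely EIF2S3, EIF2B4, EIF3I, EIF3K, EIF4A3 and EIF1. Most called members did not depend on these choices: 14 of the 19 called, 10 lower and 4 higher, had the same call in all 16 alternatives apart from the neighbour comparison described next. The other 5 were EIF3G, EIF3H, EIF3J, EIF5B and EIF5A.

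Stretches of chromosome differed between the groups as well, so each gene was also measured against the median change of its nearest tested genes, up to 25 on each side. That neighbour median ran from -0.74 beside EIF4E to 0.57 beside EIF3B. It entered the fit as a fixed offset, so its own error is left out and p-values relative to neighbours may be too small. Relative to neighbours, 3 members were higher and 17 lower, where 44.5% of all genes were called, 22.2% as higher and 22.3% as lower. Of these, 13 were lower and 1 higher in both comparisons, and EIF3B changed from higher to lower.

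**Figure D2:**
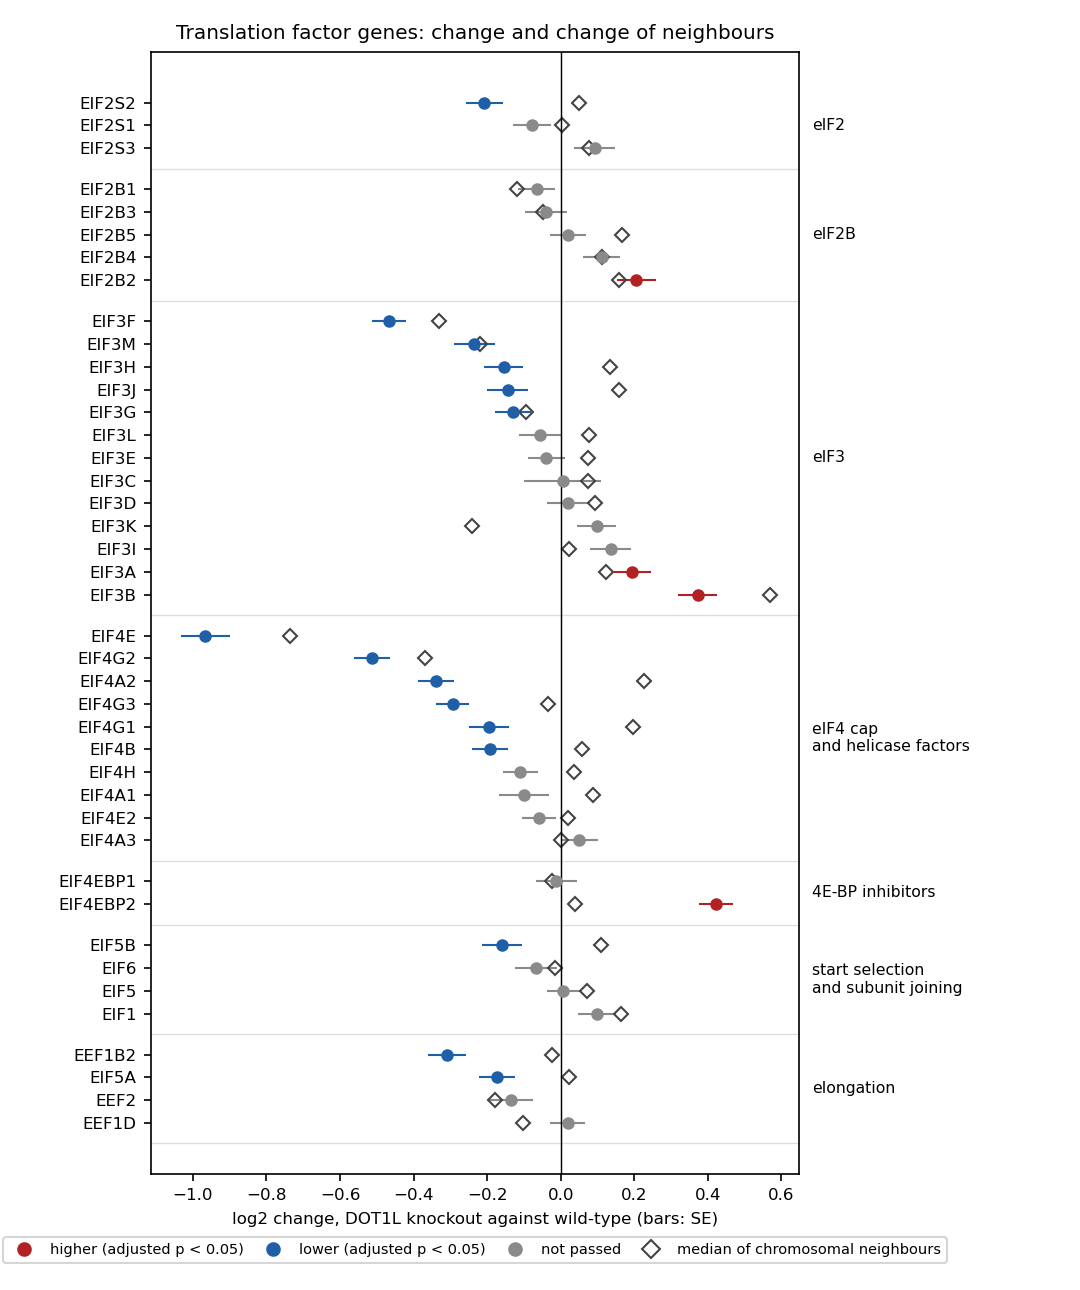
Log2 change of each tested gene from wild-type to knockout (horizontal axis, circles with SE, coloured by call) by role (vertical axis), with the median change of its chromosomal neighbours (diamonds). EIF4E and its neighbours lie far to the left at -0.97 and -0.74, whereas EIF4A2 and EIF4G1 lie left of zero and their neighbours to the right.

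The cap-binding and helicase factors (eIF4) held the most falls: 6 of 10 were lower, 0 higher and 4 did not pass, with a median log2 change of -0.19. The group thus had 60% lower, where 23.6% of all genes tested were lower and 23.9% higher. In this and every other role group with 0 rises or 0 falls in edgeR's test, the count was also 0 at an unadjusted p of 0.05, with DESeq2 and with limma on the deposited log2 values. The 6 lower calls were the same number without wild-type replicate 3 and under the other 2 scalings, where the median was between -0.15 and -0.13 and 1 member (EIF4A3, an RNA helicase of the exon junction complex) was called higher. EIF4E, the cap-binding protein (ENSG00000151247, chromosome 4, 98871684 to 98930637, minus strand, GRCh38), changed most. Its level was 56.3, 58.7, 65.2 and 60.6 CPM in wild-type replicates 1, 2, 3 and 5 and 27.2, 30.7, 30.1 and 35.2 CPM in the knockout replicates of the same numbers. The lowest wild-type sample was well above the highest knockout sample. The means were 60.2 ± 3.76 and 30.8 ± 3.30 CPM, a log2 change of -0.97 (SE 0.07, adjusted p = 6.84e-10). Most of that size was shared by its neighbours on chromosome 4, whose median was -0.74, and the change relative to them was -0.23 (adjusted p = 0.00897). A processed copy on chromosome 17, EIF4EP2, which shares 88.1% of its 31-base words with EIF4E, was also lower (log2 change -1.02, adjusted p = 5.01e-11) among neighbours with a median of 0.08. Of the 31-base words of EIF4E itself, 3.88% occur in EIF4EP2. The sources used here do not say how shared reads were assigned.

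The scaffolds were lower too. EIF4G2 (chromosome 11, 10797050 to 10809110, minus strand), a scaffold that lacks the eIF4E-binding part and serves cap-independent and scanning initiation, read 1499, 1478, 1605 and 1481 CPM in wild-type and 1044, 1107, 1053 and 1043 CPM in knockout samples. The groups were far apart (log2 change -0.51, adjusted p = 2.02e-08), with neighbours at -0.37 and a relative change of -0.15 (adjusted p = 0.0199). EIF4G1 (chromosome 3, 184314495 to 184335358, plus strand), the main scaffold, went from 1608, 1509, 1779 and 1579.7 CPM to 1412, 1369.7, 1433 and 1442 CPM. Every knockout sample was below every wild-type sample, and the log2 change of -0.20 (adjusted p = 0.00505) became -0.39 against neighbours that were higher by 0.20 (adjusted p = 4.81e-06). EIF4G3 (chromosome 1, 20806292 to 21176888, minus strand), a second full-length scaffold, had 120.1, 119.8, 115 and 117 CPM against 91.6, 95.6, 97.5 and 101 CPM. Together with EIF4A1 it was an exception to the pattern of wild-type replicate 3, which was its lowest wild-type sample. Its log2 change was -0.29 (adjusted p = 1.12e-05).

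The helicase EIF4A2 (chromosome 3, 186783205 to 186789900, plus strand) fell furthest relative to its surroundings. Its samples read 586, 597, 657 and 582 CPM in wild-type and 477, 485, 463 and 489 CPM in knockout cells, with no overlap. The log2 change was -0.34 (adjusted p = 7.32e-06) and, with neighbours at 0.23, the relative change was -0.57 (adjusted p = 8.52e-09). EIF4B, which stimulates the helicase, had a log2 change of -0.19 (adjusted p = 0.00249). EIF4H, a related stimulator, was at -0.11 (adjusted p = 0.0672), and passed as lower once samples of the same number were paired as blocks (adjusted p = 0.0267). EIF4E2, a cap-binding homologue that represses translation, was at -0.06 (adjusted p = 0.323) and EIF4A3 at 0.05 (adjusted p = 0.441).

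EIF4A1, the more abundant helicase in many cell types, is uncertain here. Its counts were 25.1, 25.7, 25.8 and 29.9 CPM in wild-type and 26.4, 22.3, 24.1 and 26.6 CPM in knockout samples, which overlapped (log2 change -0.10, adjusted p = 0.245). The processed copy EIF4A1P10 on chromosome X held 6.59 times as many counts, and a read-through gene with SENP3 overlaps the locus. With all genes that share its sequence added, the level was 213 ± 14.3 and 199 ± 3.50 CPM and the log2 change was still -0.10 (adjusted p = 0.118).

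Neither of the 2 inhibitors of eIF4E was called lower. EIF4EBP2 (chromosome 10, 70404379 to 70428618, plus strand) had the largest rise of all members, from 174, 167, 186 and 176 CPM to 228, 233, 243 and 236 CPM. All knockout samples were above all wild-type samples, with a log2 change of 0.42 (adjusted p = 1.43e-07) and of 0.38 relative to neighbours (adjusted p = 7.87e-07). EIF4EBP1 read 78.6, 74.5, 91.3 and 77.9 CPM in wild-type and 83.5, 79.1, 78.3 and 78.8 CPM in knockout samples. These overlapped, and the log2 change was -0.01 (SE 0.06, adjusted p = 0.878).

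**Figure D3:**
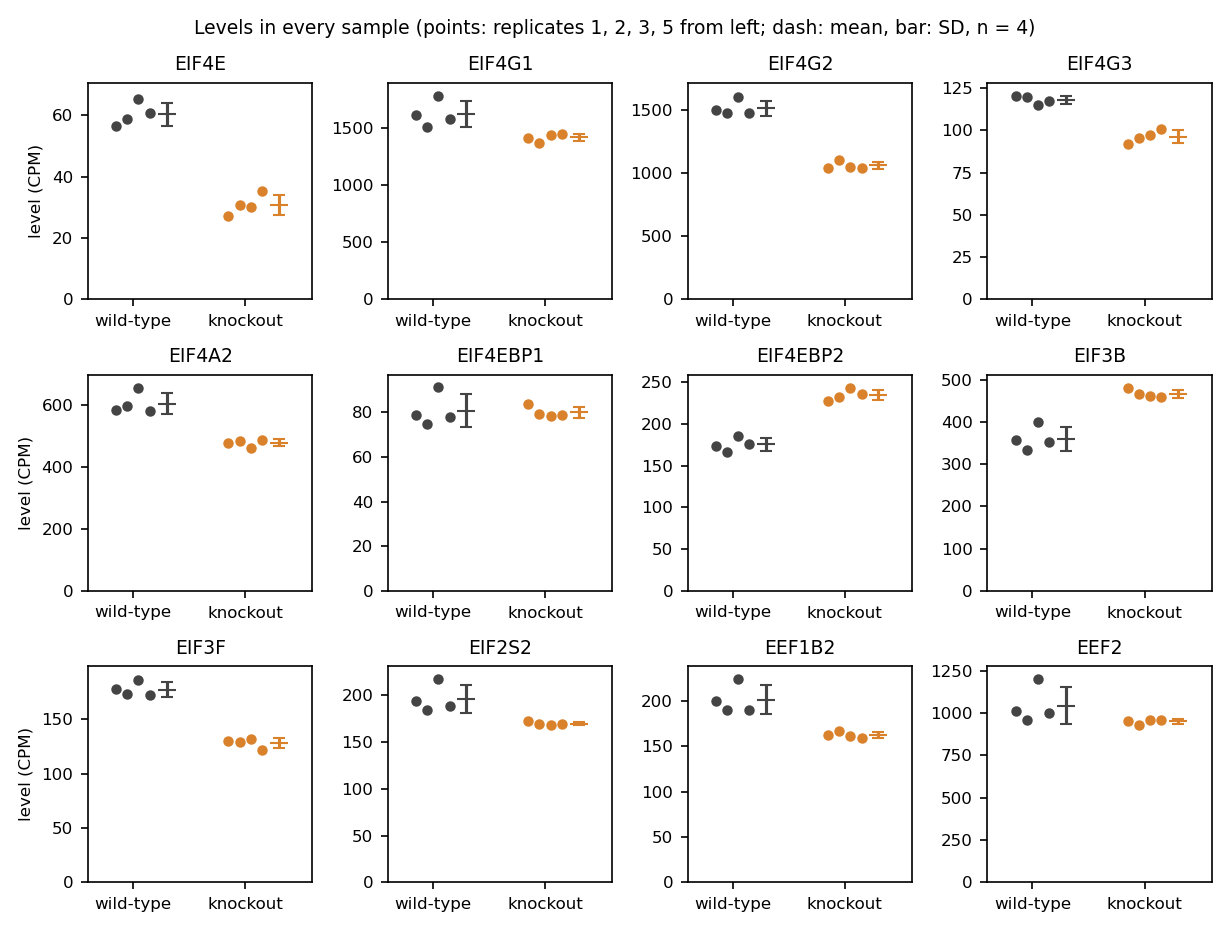
CPM (vertical axis, from 0) of 12 named genes in the wild-type and knockout samples (horizontal axis), each point a sample, with the mean as a dash and the SD as a bar (n = 4). EIF4EBP2 and EIF3B are higher in every knockout sample, EIF4EBP1 overlaps, and the other 9 are lower in every knockout sample, although EEF2 did not pass the test.

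Ratios within a sample do not depend on the scaling between samples. The log2 ratio of EIF4EBP1 to EIF4E counts was 0.48, 0.34, 0.49 and 0.36 in wild-type and 1.62, 1.37, 1.38 and 1.16 in knockout samples. The groups were apart, with means of 0.42 ± 0.08 and 1.38 ± 0.19 and a difference of 0.96. A two-sided exact permutation test gave p = 0.0286, the smallest value that 4 against 4 samples allow, and 0.0857 after adjustment over the 3 ratios compared. The ratio of EIF4A2 to EIF4A1 went from 4.51 ± 0.16 to 4.27 ± 0.12, a difference of -0.24 with overlapping groups (exact p = 0.0571, adjusted p = 0.0857). It was nevertheless lower in the knockout sample of all 4 same-numbered pairs (exact sign-flip p = 0.125, the smallest that 4 pairs allow). The level of this ratio is uncertain, because EIF4A1P10, which shares sequence with EIF4A1, held 6.59 times as many counts. The ratio of EIF4G3 to EIF4G1 was -3.77 ± 0.13 and -3.88 ± 0.05, again overlapping (exact p = 0.2), and lower in 3 of 4 pairs. Without wild-type replicate 3 the adjusted p of the first and of the last ratio became 0.0429 (exact permutation test). Both then had an exact p of 0.0286, the smallest that 4 against 3 samples allow. For the first ratio that p was unchanged, and its adjusted p moved with that of the last ratio.

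**Figure D4:**
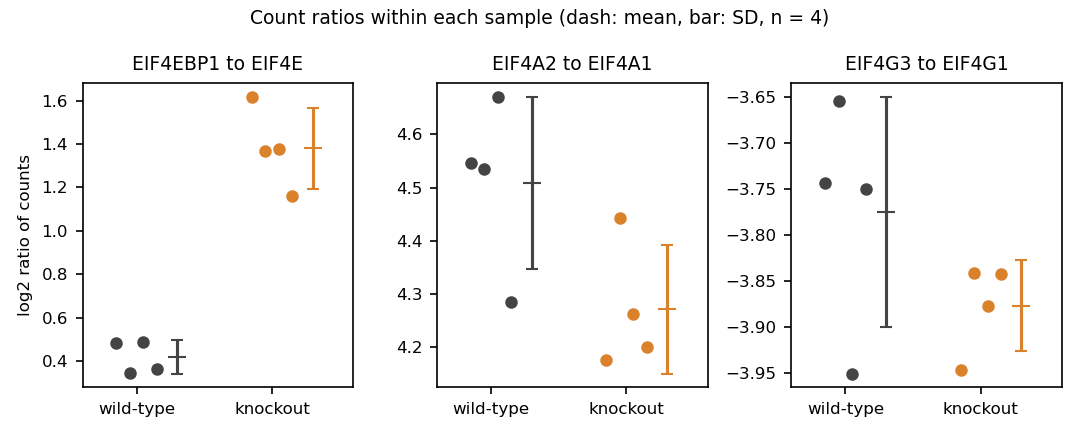
Log2 ratio of counts (vertical axis) of 3 gene pairs in wild-type and knockout samples (horizontal axis), each point a sample, with the mean as a dash and the SD as a bar (n = 4). The ratio of EIF4EBP1 to EIF4E is between 0.34 and 0.49 in wild-type and between 1.16 and 1.62 in knockout samples, and the other 2 ratios overlap. The counts of EIF4A1 are uncertain.

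MYC binds the E-box CACGTG, a word that reads the same on both strands. It was searched for in RefSeq promoters (GRCh38.p14, 250 bases before to 50 after each start), which were matched for 34 of the 42 members. The word was found in 8 of these (23.5%), against 8.77% of the 27305 genes in the table, tested here or not. A gene was counted when any of its promoters held the word, with 48 promoters for the 34 members and 35116 for the 27305 genes. Of the 8, 4 fell, 0 rose and the median log2 change was -0.15, where 23.6% of all genes tested were lower and 23.9% higher. Of the 25 tested members without the word in this window, 8 fell and 3 rose, with a median of -0.07. Without wild-type replicate 3 the counts were 4 lower and 2 higher with the word and 6 lower and 7 higher without it. Relative to neighbours they were 5 lower and 1 higher with the word (median -0.14) and 10 lower and 1 higher without it (median -0.07). The sequences are printed because the largest fall, EIF4E, has 2 such words in the 250 bases before its start (chr4:98929134-98929383, minus strand), shown in capitals.
EIF4E promoter: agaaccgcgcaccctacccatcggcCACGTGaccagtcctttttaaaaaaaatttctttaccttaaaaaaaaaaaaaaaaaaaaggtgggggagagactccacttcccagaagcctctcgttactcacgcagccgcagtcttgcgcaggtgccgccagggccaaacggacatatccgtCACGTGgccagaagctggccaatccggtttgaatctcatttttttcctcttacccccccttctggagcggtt
The other 3 members that fell are shown in windows of 30 bases around the word, at chr3:184314450-184314479 and chr3:184314527-184314556 (EIF4G1), chr12:53006422-53006451 (EIF4B) and chr11:7987257-7987286 (EIF3F), all on the plus strand.
EIF4G1, distal word: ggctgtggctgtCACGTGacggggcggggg
EIF4G1, proximal word: ccctgcgccggtCACGTGggggcgccggct
EIF4B: gcccgctataatCACGTGattgcctcatcc
EIF3F: aaagctctagctCACGTGgtgtatattcag
The remaining 4 did not pass the test, and are shown for contrast, at chr19:38619073-38619102 (EIF3K, plus), chr17:80147232-80147261 (EIF4A3, minus), chr7:74174145-74174174 (EIF4H, plus) and chr1:44986757-44986786 (EIF2B3, minus).
EIF3K: cgaggaagaagtCACGTGgcagccggaaag
EIF4A3: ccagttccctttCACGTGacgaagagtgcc
EIF4H: acgccgccgcacCACGTGggctgcagagcg
EIF2B3: gacagagggacaCACGTGtcgaatgctcct
A word in a promoter is a description, and binding of MYC was not measured.

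Of the 13 subunits of eIF3, the complex that holds the small ribosomal subunit and the mRNA together, 5 fell, 2 rose and 6 did not pass, with a median log2 change of -0.04. The subunits thus had 38.5% lower and 15.4% higher, beside 23.6% and 23.9% of all genes. Without wild-type replicate 3, 3 fell and 4 rose, with a median of 0.01 beside 0.01 over all genes. With library totals or upper-quartile scaling 2 fell and 4 rose, and the medians of 0.02 and 0.03 stood beside 0.07 over all genes. EIF3F (ENSG00000175390, chromosome 11, 7970251 to 8001862, plus strand), a subunit with a deubiquitinase-like fold, fell most, from 178, 173, 186 and 172 CPM to 129.7, 129, 132 and 122 CPM. No knockout sample reached the wild-type range (log2 change -0.47, adjusted p = 2.64e-08). Its neighbours were lower by a median of -0.33, which left a relative change of -0.14 (adjusted p = 0.0189). EIF3M, on the same chromosome (32583798 to 32606262, plus strand), read 209, 205, 249.8 and 215 CPM against 185, 189, 185 and 187 CPM. It was lower without overlap (log2 change -0.23, adjusted p = 0.00123), but its neighbours were at -0.22 and the change relative to them was -0.01 (adjusted p = 0.859). The changes of EIF3H (-0.15, adjusted p = 0.0191), EIF3J (-0.14, adjusted p = 0.0397) and EIF3G (-0.13, adjusted p = 0.0309) were smaller. Without wild-type replicate 3, EIF3J was at -0.08 (adjusted p = 0.153) and EIF3G at -0.09 (adjusted p = 0.0891). EIF3J, a loosely bound subunit that aids start site recognition, had overlapping groups.

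EIF3B, the scaffold that carries EIF3G and EIF3I (chromosome 7, 2354086 to 2380745, plus strand), rose from 356, 334, 400.4 and 352 CPM to 481, 466, 462 and 458 CPM. The groups did not overlap, and the log2 change was 0.37 (adjusted p = 5.34e-06). Its neighbours had a higher median, 0.57, and relative to them it was lower (-0.20, adjusted p = 0.00448). EIF3A, the largest core subunit (chromosome 10, 119033670 to 119080823, minus strand), rose from 508, 503, 581 and 507 CPM to 589, 600.0, 613 and 602 CPM. The gap was narrow, between wild-type replicate 3 and knockout replicate 1 (log2 change 0.19, adjusted p = 0.00358), and relative to neighbours at 0.12 the change was 0.07 (adjusted p = 0.277).

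The 6 eIF3 genes that did not pass ran from -0.06 for EIF3L to 0.14 for EIF3I. EIF3I became higher with the replicate block (adjusted p = 0.00713) and without wild-type replicate 3 (adjusted p = 0.000972). EIF3K had a change of 0.10 (adjusted p = 0.14) among neighbours at -0.24, which made it higher relative to them (0.34, adjusted p = 2.63e-05). EIF3C is uncertain. Per length of exon it stood at 0.69 RPKM (CPM per kilobase) in wild-type cells, against 18.8 to 117 RPKM for the other 12 subunits, and 48.2% of its 31-base words occur in other genes, mostly in the near-identical copy EIF3CL.

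Of eIF2, which carries the initiator tRNA, the beta subunit EIF2S2 fell (chromosome 20, 34088298 to 34112332, minus strand), from 193, 184, 218 and 189 CPM to 172, 169, 168 and 169 CPM. The knockout samples lay close together below all wild-type samples, with a log2 change of -0.21 (adjusted p = 0.00175) and of -0.26 relative to neighbours (adjusted p = 0.000281). The alpha subunit EIF2S1, the target of the stress kinases, read 418, 409, 456 and 387 CPM against 392, 405, 399 and 386 CPM. These overlapped (log2 change -0.08, adjusted p = 0.221). The gamma subunit EIF2S3, which binds GTP, was at 0.09 (adjusted p = 0.179), and at 0.16 without wild-type replicate 3 (adjusted p = 0.00141).

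Among the 5 subunits of eIF2B, the exchange factor of eIF2, EIF2B2 rose (chromosome 14, 75002911 to 75012366, plus strand) and 4 did not pass. EIF2B2 had 107, 101, 108 and 93.0 CPM in wild-type and 126, 118, 117 and 110.1 CPM in knockout samples. The groups were apart by a small margin (log2 change 0.21, adjusted p = 0.00328), and the change relative to neighbours was 0.05 (adjusted p = 0.519). EIF2B4 was at 0.11 (adjusted p = 0.0791, 0.0381 with the block and 0.0147 without wild-type replicate 3), and EIF2B1, EIF2B3 and EIF2B5 were between -0.07 and 0.02. EIF2B5, the catalytic subunit, was lower relative to its neighbours (-0.15, adjusted p = 0.0215).

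Of the 4 factors of start selection and subunit joining, EIF5B, the GTPase that joins the subunits, was lower (-0.16, adjusted p = 0.0208) and at -0.10 without wild-type replicate 3 (adjusted p = 0.0712). EIF1, which guards start codon choice, was at 0.10 (adjusted p = 0.12) and without that sample at 0.15 (adjusted p = 0.00322). EIF5, the GTPase activator of eIF2, was at 0.01 and EIF6, which keeps large subunits apart from small ones, at -0.07 (adjusted p = 0.363).

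In elongation, 2 of the 4 genes tested fell and 0 rose, where 23.6% of all genes tested were lower and 23.9% higher. EEF1B2, the exchange factor of eEF1A (chromosome 2, 206159585 to 206162928, plus strand), read 200.01, 190.0, 224 and 189.9 CPM against 162, 167, 162 and 159 CPM. All knockout samples were below the wild-type range, with a log2 change of -0.31 (adjusted p = 4.23e-05) and of -0.28 relative to neighbours. EIF5A, the hypusine-bearing factor that frees stalled ribosomes (chromosome 17, 7306999 to 7312463, plus strand), had the highest level per length of all members in wild-type cells, 397 RPKM, ahead of EEF2 at 259 and EIF4G1 at 196 RPKM. It went from 1133, 1079, 1192 and 1065 CPM to 992, 998, 970.1 and 1001 CPM without overlap (log2 change -0.17, adjusted p = 0.0062), and did not pass under upper-quartile scaling (adjusted p = 0.0519).

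EEF2, the translocase (chromosome 19, 3976056 to 3985469, minus strand), read 1009, 961, 1203 and 1002 CPM in wild-type and 954, 927, 960.1 and 958 CPM in knockout samples. Although the groups did not overlap, the log2 change of -0.14 did not pass (adjusted p = 0.0673), and passed with the block (adjusted p = 0.0252). Its neighbours were at -0.18. EEF1D, another exchange factor subunit, was at 0.02 (adjusted p = 0.778).

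EEF1G, the structural subunit of eEF1, could not be tested. Its counts were 2, 2, 1 and 0 in wild-type and 3, 0, 2 and 0 in knockout samples, and 97.8% of its 31-base words occur in other genes. An overlapping gene (ENSG00000255508) holds 96.8% of them, and a processed copy on chromosome 7 (ENSG00000283041) holds 38.5%. The copy had 373 ± 27.9 CPM in wild-type and 257 ± 10.7 CPM in knockout samples, and all these genes summed had a log2 change of -0.54 (adjusted p = 3.61e-08). Which locus gave the reads was not tested. Across the members, 19 other genes with at least 100 counts on average shared sequence with 13 members. Of the 18 that share it with a tested member, 16 had the sign and 17 the call of that member, so the levels of these members are uncertain while the sums had the same calls.

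Pyrimidine starts were read from the same promoters, as a C at the annotated start followed by at least 4 pyrimidines on the sense strand, and no run overlapped an E-box word. Counted by any promoter as for the E-box, they occurred in 9 of the 34 matched members (26.5%). The share was 5.14% of the 27305 genes in the table, tested here or not. Of these 9, 5 fell and 0 rose, with a median log2 change of -0.19, where 23.6% of all genes tested were lower and 23.9% higher. Of the 24 other tested members with a promoter, 7 fell and 3 rose, with a median of -0.06. Without wild-type replicate 3 the counts were 5 lower and 2 higher with such a start, and 5 lower and 7 higher without. Relative to neighbours the medians were -0.07 and -0.08. Windows from 10 bases before to 20 after the start are printed for the 5 that fell and for EEF2, with the run of pyrimidines in capitals, at chr2:206159885-206159914 (EEF1B2, plus), chr3:186783567-186783596 (EIF4A2, plus), chr11:7987327-7987356 (EIF3F, plus), chr11:32583821-32583850 (EIF3M, plus), chr12:53006446-53006475 (EIF4B, plus) and chr19:3985444-3985473 (EEF2, minus).
EEF1B2 start: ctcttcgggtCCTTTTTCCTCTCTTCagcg
EIF4A2 start: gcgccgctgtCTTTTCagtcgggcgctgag
EIF3F start: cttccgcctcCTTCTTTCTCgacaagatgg
EIF3M start: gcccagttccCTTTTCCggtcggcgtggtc
EIF4B start: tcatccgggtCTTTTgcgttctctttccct
EEF2 start: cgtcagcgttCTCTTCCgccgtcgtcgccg
A list of TOP mRNAs among translation factors, drawn up from general knowledge, gave 5 lower and 0 higher of 9 tested, with a median of -0.15, and 5 lower and 1 higher without wild-type replicate 3.

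The 11 translation factors on a list of MYC hallmark genes had 5 falls, 1 rise (EIF3B) and a median of -0.11. They were thus 45.5% lower and 9.09% higher, beside 23.6% and 23.9% of all genes. Without wild-type replicate 3 they had 4 falls and 1 rise, where 23.3% of all genes were lower and 24.3% higher. Relative to neighbours 8 were lower and 0 higher, beside 22.3% and 22.2% of all genes. These are EIF4E, EIF4G2, EIF2S2, EEF1B2 and EIF3J, which were lower in both comparisons, with EIF3B, EIF4A1 and EIF4H.

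Other genes of the pathway, 60 in 6 lists, had 24 falls, 8 rises and a median log2 change of -0.09, and without wild-type replicate 3 they had 21 falls and 11 rises. Of the 60, 40% were lower and 13.3% higher, beside 23.6% and 23.9% of all genes. Of 16 further initiation and elongation factors 6 fell and 2 rose (5 and 3 without wild-type replicate 3). EIF4E3, a cap-binding homologue of eIF4E, rose from 6.82 ± 0.747 to 18.2 ± 1.40 CPM (1.42 on the log2 scale, adjusted p = 1.73e-11), and EIF5A2, a paralogue of EIF5A, from 49.6 ± 5.19 to 66.5 ± 3.74 CPM (0.42, adjusted p = 2.12e-05). Neither gene had neighbours that moved with it (medians -0.05 and 0.06). Per length of all annotated exons, EIF4E stood at 4.28 ± 0.267 RPKM in wild-type and 2.19 RPKM in knockout cells, and EIF4E3 at 0.633 and 1.69 RPKM. The EIF4E values leave out counts in genes that share its sequence, so the levels of the 2 genes are not directly comparable. With those genes added, EIF4E had 98.9 ± 6.38 CPM in wild-type and 49.9 ± 4.77 CPM in knockout samples.

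Of the 17 kinases, phosphatases and signalling proteins that act on initiation, 10 fell and 4 rose (9 and 4 without wild-type replicate 3), with a median of -0.21. The list thus had 58.8% lower and 23.5% higher, beside 23.6% and 23.9% of all genes. PDCD4, an inhibitor of the eIF4A helicase, fell from 110.4 ± 7.79 to 57.9 ± 4.55 CPM (-0.93 on the log2 scale, adjusted p = 1.01e-10), and its change relative to neighbours was -1.04. RPS6KB2, an S6 kinase, fell from 50.2 ± 1.48 to 28.9 ± 1.11 CPM (-0.80, adjusted p = 3.53e-11), with neighbours on chromosome 11 at -0.47.

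Among termination and recycling factors, 2 of 4 fell, where 23.6% of all genes tested were lower and 23.9% higher. ABCE1, which recycles ribosomes, went from 263 ± 20.7 to 135 ± 7.94 CPM (-0.96, adjusted p = 1.46e-11), and like EIF4E it is on chromosome 4 with neighbours that were lower (median -0.78, relative change -0.18, adjusted p = 0.0145). The release factor ETF1 was at -0.24 (adjusted p = 0.00157). Of 5 poly(A)-binding proteins and partners 2 fell, PAIP1 most clearly (-0.32, adjusted p = 9.53e-06), and PAIP2B rose (0.58, adjusted p = 1.45e-05). These counts were 2 falls and 2 rises without wild-type replicate 3. The 8 hypusine and diphthamide enzymes, which modify EIF5A and EEF2, had 3 falls, led by DPH7 (-0.29, adjusted p = 0.000125) and DPH5 (-0.17, adjusted p = 0.0142), and 1 fall without wild-type replicate 3. The mitochondrial factors held 1 fall, GFM1 (-0.28, adjusted p = 0.000138), and 1 rise, MTIF2 (0.17, adjusted p = 0.0269), among 10 genes, and 2 falls and 2 rises without wild-type replicate 3.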

How the data were processed

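RNA of 4 wild-type and 4 DOT1L knockout samples was sequenced as stranded libraries after ribosomal RNA depletion, per the labels' protocols. The authors deposited whole-number counts per Ensembl gene and a table of log2 values from a variance-stabilizing transformation. Per the submitters' processing notes, the tools were FastQC 0.11.7, the aligner STAR 2.6.0c, the counter featureCounts of Subread 1.6.2 and DESeq2 1.23.10, on the build hg38. Not given in the sources used here are the annotation, the strand setting and the handling of reads with several positions, and members with near-identical copies are uncertain.

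Counts were tested in R 4.3.3 with edgeR 4.0.16 (filterByExpr, TMM, robust quasi-likelihood fit, group as the single term, Benjamini-Hochberg adjustment over all 19877 genes tested, threshold 0.05). Each adjusted p for a gene comes from edgeR's test, on this fit unless another is named beside it. Symbols matched 60333 of 60646 identifiers. Positions and exon lengths came from GENCODE 29 on GRCh38, which held 58459. Other fits used library totals, upper-quartile scaling, DESeq2 1.42.0, 2 other count filters (10 counts in all, or mean log2 CPM of at least 1), a replicate block, limma 3.58.1 on the deposited log2 values, an offset by the neighbours' median, and each sample left out. Summing genes that share sequence was added after the data were seen.

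Totals per sample were 40103408 to 50031412 counts. Replicates differed by more than sampling noise (chi-square per degree of freedom 3.68 to 20.5). Over 13212 genes, the deviations of samples 1, 2, 3 and 5 from their group means correlated across the groups at 0.376, 0.154, 0.153 and 0.391. Each was above the minimum of 0.1, and other pairs gave -0.301 to 0.0596. The shared numbers in the labels were therefore taken to pair the samples in the replicate block and the sign-flip tests. The main fit and the permutation tests left this pairing out. In simulated data for this comparison (19061 genes), recovery was 88.0% for 83 genes with a 1.5-fold change. It was 96.6% for 58 with a 2-fold and 100% for 59 with a 4-fold change. Of 203 calls, 7.39% were false. Far fewer genes were changed than were called in the real data. Changes smaller than 1.5-fold, the size of most members' changes, were not simulated, so recovery at that size is not known.

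The members and lists were chosen with earlier results of these data known. Named in full are the 5 largest rises (4 passed) and 8 largest falls among called members and 9 key genes, and up to 2 members of each other pathway list with the smallest adjusted p.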

Additional observations from a re-analysis of the deposited data

Results flagged for a closer look

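In 6 of 82 groups of 4 samples, 1 sample lay far from the other 3, by Dixon's criterion for the gap over the group's range at the 5% level. Chance gives about 1 in 20 such groups. Wild-type replicate 3 was the high sample in 3 of them: EIF3A at 581 CPM (next 508), EIF4G2 at 1605 CPM (next 1499) and EIF5B at 172 CPM (next 149). EIF4A1 stood at 29.9 CPM in wild-type replicate 5, where the next sample had 25.8. EIF4G2 stood at 1107 CPM in knockout replicate 2 (next 1053), and EIF4EBP1 at 83.5 CPM in knockout replicate 1 (next 79.1). The calls of EIF3A and EIF4G2 held without the sample concerned, and EIF5B did not pass without wild-type replicate 3 (adjusted p = 0.0712, edgeR's quasi-likelihood test).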

How the results depend on the processing

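The 9458 calls over all genes ranged from 7506 to 10472 over the alternatives. The 7506 came from the fit without genes under a mean log2 CPM of 1, which tested fewer genes, so it is not a lower share. Members called higher were 4 in the fit reported, 10 with library totals, 10 with upper-quartile scaling and 8 when genes under a mean log2 CPM of 1 were left out, and 4 to 10 with each sample left out, the 10 being without wild-type replicate 3. Members called lower stayed within 1.5 times of 15. Relative to neighbours, EIF2B5 (-0.15) and EIF3B (-0.20) changed sign and were called lower. Members that passed in neither comparison, among them EEF2, also changed sign. The cause was not tested. With the replicate block, which treats same-numbered samples as pairs, 6 members were higher and 17 lower. That is 14.6% and 41.5%, beside 26.6% higher and 26.1% lower of all genes in the same fit. EIF2B4 and EIF3I were added to the rises and EIF4H and EEF2 to the falls, and no other member's call changed. With each sample left out in turn, the differences in log2 ratio ran from 0.88 to 1.04 (EIF4EBP1 to EIF4E), from -0.31 to -0.18 (EIF4A2 to EIF4A1) and from -0.16 to -0.062 (EIF4G3 to EIF4G1). Over pairs, an exact sign-flip test gave adjusted p = 0.1875, 0.1875 and 0.25, with 0.125 the smallest p that 4 pairs allow. At this depth 1 count was 0.0198 to 0.0250 CPM.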
